A study of Homo sapiens with 20 samples.

Results

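The genes examined here are 44 interferon-stimulated genes, listed by name and followed through every treatment and time of the experiment. Each gene was represented by 1 probe, the one with the highest mean intensity over all 20 arrays, and a gene whose probe had a detection p under 0.01 on fewer than 3 arrays was set aside as absent. Of the 44, 33 had a probe among those that could be named and 31 passed the detection filter, out of 12306 named genes and 10666 tested genes on the array. The cells were Mel202, an established human uveal melanoma line grown from an irradiated tumour that had recurred in the eye, which carries GNAQ Q209L and GNAQ R210K and is wild type for BRAF. They received all-trans retinoic acid (ATRA) or its isomer 9-cis retinoic acid (9-cis RA), each at 100 nM in serum-containing medium, or only the ethanol (EtOH) that dissolved both. At 24 h there were 3 ATRA samples on 4 arrays, 2 9-cis RA samples on 3 arrays and 2 EtOH samples on 3 arrays, and the 48 h groups had the same sizes. Repeat arrays of 1 sample were averaged, so that 20 Illumina BeadChip arrays gave 14 samples, and a name such as replicate 2-3 stands for a sample measured on both of these arrays. A single line at 1 dose was studied, and the labels do not say that the samples came from separate cultures, so the p-values rest on a spread between samples that may be technical.

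Type I interferons bind IFNAR1 and IFNAR2, whose kinases JAK1 and TYK2 activate the factor ISGF3. ISGF3, of which IRF9 is a part, binds interferon-stimulated response elements (ISREs), while interferon gamma acts through gamma-activated sites (GAS) and induces IRF1. The genes induced in this way encode sensors and inhibitors of viral RNA, the ubiquitin-like modifier ISG15 with its enzymes, and proteins that block virus entry, and retinoic acid is known in other cells to raise some of them.

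The promoters of the members that passed the test with either retinoid are shown first, because the response elements are what the list has in common by its biology. RefSeq promoters (GRCh38.p14, 250 bases before to 50 after the annotated start) were matched for 33 of the 44 members. The ISRE core GAAANNGAAA, searched on both strands, was present in 23 of 33 members (69.7%), in 16 of the 25 tested members that matched and in 6 of the 11 that passed, against 3.65% of 27305 promoters. A match describes these letters only and is neither a measured binding site nor a cause of any change. Stretches of 60 bases upstream of the start follow, 5′ to 3′ on the strand of the gene, with the ISRE cores, read on either strand, in capitals (adjoining cores run together).
DDX60, chr4:168318788-168318847, minus strand: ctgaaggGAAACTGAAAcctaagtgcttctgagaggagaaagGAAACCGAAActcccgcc
HERC5, chr4:88456972-88457031, plus strand: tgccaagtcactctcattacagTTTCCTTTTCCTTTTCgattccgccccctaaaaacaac
IFIT1, chr10:89392489-89392548, plus strand: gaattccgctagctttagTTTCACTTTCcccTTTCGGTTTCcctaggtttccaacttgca
IFIT3, chr10:89327833-89327892, plus strand: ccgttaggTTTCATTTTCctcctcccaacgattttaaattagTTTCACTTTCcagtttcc
ISG20, chr15:88638922-88638981, plus strand: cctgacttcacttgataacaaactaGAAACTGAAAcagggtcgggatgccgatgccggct

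MX1, the other passing member with an ISRE core, had it 11 to 20 bases after the start. The GAS letters TTCNNNGAA, which read alike on both strands, were in 8 of 33 matched members (24.2%) and 4 of the 11 that passed, against 7.88% of all promoters. In the members that passed they lay as capitals below, and they include both transcription factor genes of that set, IRF1 and IRF9, neither of which had an ISRE core in its window. A GAS can overlap an ISRE core, as the letters of both motifs share GAA.
DDX60, chr4:168318842-168318901, minus strand: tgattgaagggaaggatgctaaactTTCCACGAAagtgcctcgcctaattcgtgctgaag
IFI35, chr17:43006724-43006783, plus strand: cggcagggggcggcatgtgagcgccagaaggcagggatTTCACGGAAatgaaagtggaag
IRF1, chr5:132490863-132490922, minus strand: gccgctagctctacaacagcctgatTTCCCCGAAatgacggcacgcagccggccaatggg
IRF9, chr14:24161177-24161236, plus strand: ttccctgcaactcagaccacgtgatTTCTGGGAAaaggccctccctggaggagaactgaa

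DDX60 held both motifs, and HERC6 and ADAR held neither in these 300 bases. The DR5 retinoic acid response element, a direct repeat spaced for the heterodimer of retinoic acid and retinoid X receptors, was in 0 of the 33 matched members and in 0.168% of all promoters. No match says only that these letters are not in these windows.

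The share of the 47323 probes with a detection p under 0.01 ranged from 26.5% to 36.2% over the arrays, whose number limits the precision. The arrays fell into 2 sets, 12 arrays with 15870 to 17128 detected probes, on which 24 to 31 of the members were detected, and 8 arrays with 12561 to 14301, on which 14 to 23 members were detected. Every group had arrays in both sets, but ATRA 24 h replicate 4 and ATRA 48 h replicate 4 were measured only in the set of 8. CYP26A1, the retinoic acid hydroxylase that retinoids induce, went undetected in all EtOH samples and stood at least 36.9-fold higher in every retinoid group. The first principal component (42.7% of the variance) separated the EtOH samples from the others. On the second (17.5%) 4 samples stood apart from the rest: ATRA 24 h replicate 4, ATRA 48 h replicate 4 and both 9-cis RA samples at 24 h. The ATRA samples among them are those measured only in the set of 8 arrays, and the part of the array set was not tested. Because the 4 samples include the whole 9-cis RA 24 h group, each call in that group is also given with them as a term in the model. This check was chosen after seeing the data. The term is estimated only from the ATRA samples, replicate 4 against the others. It therefore cannot separate 9-cis RA at 24 h from the component. All 6 melanocytic markers that could be named (MLANA, PMEL, TYR, TYRP1, MITF and SOX10) were detected on 20 of 20 arrays, as the labelled cell type requires.

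With either retinoid a minority of the interferon-stimulated genes was called higher and none was called lower. A member was called where limma's moderated test gave an adjusted p under 0.05 over all 10666 genes. Of all 10666 genes, 265 and 938 were called lower with ATRA at 24 h and 48 h, and 619 and 587 with 9-cis RA. A missed threshold does not show that no member fell. After 24 h of ATRA, 1 of 31 tested members rose (3.23%), which is close to the background: 3.3% of all tested genes were higher and 5.78% differed in either direction. After 48 h of ATRA 6 members rose (19.4%), where 8.62% of all genes were higher and 17.4% differed. After 24 h of 9-cis RA 7 members rose (22.6%), against 8.72% higher and 14.5% in either direction among all genes. IRF1, counted among these 7 and in the medians and the counts above 0 and without overlap below, passed the detection filter only through this group. After 48 h of 9-cis RA 4 members rose (12.9%), against 5.56% higher and 11.1% in either direction. The calls fell on 11 different genes, IRF9, ISG20, IRF1, MX1, IFI35, IFIT1, IFIT3, HERC6, DDX60, HERC5 and ADAR, with IFIT1 in all 4 comparisons. The ATRA and 9-cis RA comparisons at a given time share their EtOH samples and are therefore not independent of each other. In RNA from whole cultures, a change in how many cells express a gene and a change in RNA per cell cannot be told apart.

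The median of the members, the called ones included, lay above that of all genes in each comparison with EtOH. The median difference of the 31 members, on the log2 scale, was 0.23 with ATRA and 0.43 with 9-cis RA at 24 h, and 0.31 with ATRA and 0.19 with 9-cis RA at 48 h, where the median of all genes was between -0.02 and 0.01. With the 4 samples that stood apart as a term, the median with 9-cis RA at 24 h was 0.45, and that of all genes 0.05. The term rests on the ATRA samples alone, so these values do not separate 9-cis RA from the component. Members with a difference above 0 numbered 20 and 21 of 31 with ATRA and 9-cis RA at 24 h and 17 and 26 of 31 with ATRA and 9-cis RA at 48 h, where 47.5% to 51.0% of all genes were above 0. The other members, 11 and 10 at 24 h and 14 and 5 at 48 h, were below 0, and with ATRA at 48 h the share above 0 (54.8%) was near that of all genes (49.9%). Every ATRA sample lay above every EtOH sample for 17 members at 24 h (54.8%; all genes, 21.9%) and for 11 at 48 h (35.5%; all genes, 18.7%). Every 9-cis RA sample did so for 21 members at 24 h (67.7%; all genes, 37.7%) and for 14 at 48 h (45.2%; all genes, 23.7%). The opposite order, with every treated sample below every EtOH sample, was seen with ATRA for 4 members at 24 h (12.9%; all genes, 24.2%) and 3 at 48 h (9.68%; all genes, 20%). With 9-cis RA it was seen for 7 members at 24 h (22.6%; all genes, 34.5%) and 2 at 48 h (6.45%; all genes, 25.3%). In each of the 10 treated samples taken singly, the members' median lay 0.16 to 0.41 above the EtOH mean of the same time, with 18 to 25 members above it. The 2 highest shifts, 0.41 and 0.39, were those of the 9-cis RA samples at 24 h, as the plot of the shift per sample shows. The medians are smaller where no background is subtracted: 0.12 and 0.20 with ATRA and 9-cis RA at 24 h, and 0.11 and 0.08 at 48 h. With the log2 values of the authors' series matrix they were 0.09 and 0.13 at 24 h, and 0.08 and 0.07 at 48 h.

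**Figure D1:**
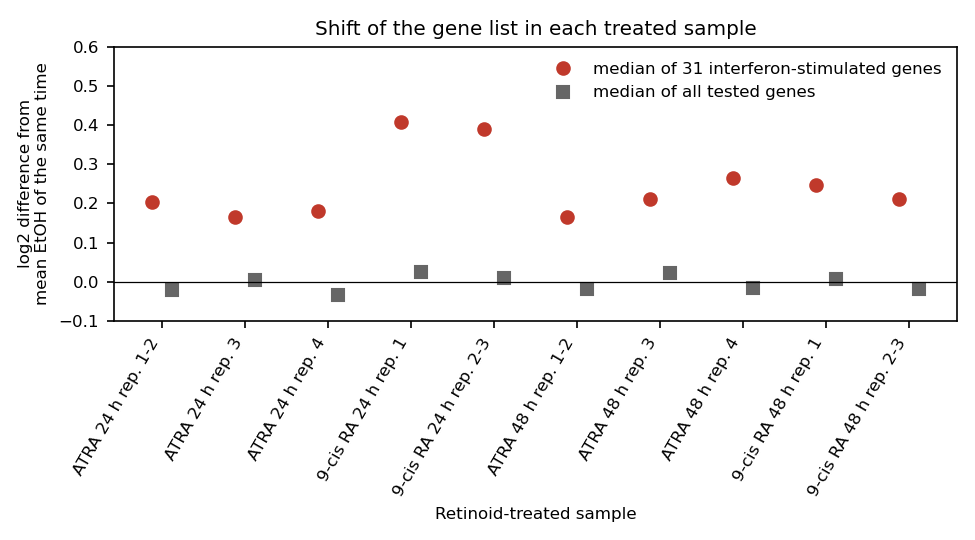
Median log2 difference of the 31 tested interferon-stimulated genes (red circles) and of all 10666 tested genes (grey squares) in each treated sample from the mean of the EtOH samples of the same time. The members' medians lie between 0.16 and 0.41 and the medians of all genes between -0.03 and 0.03.

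**Figure D2:**
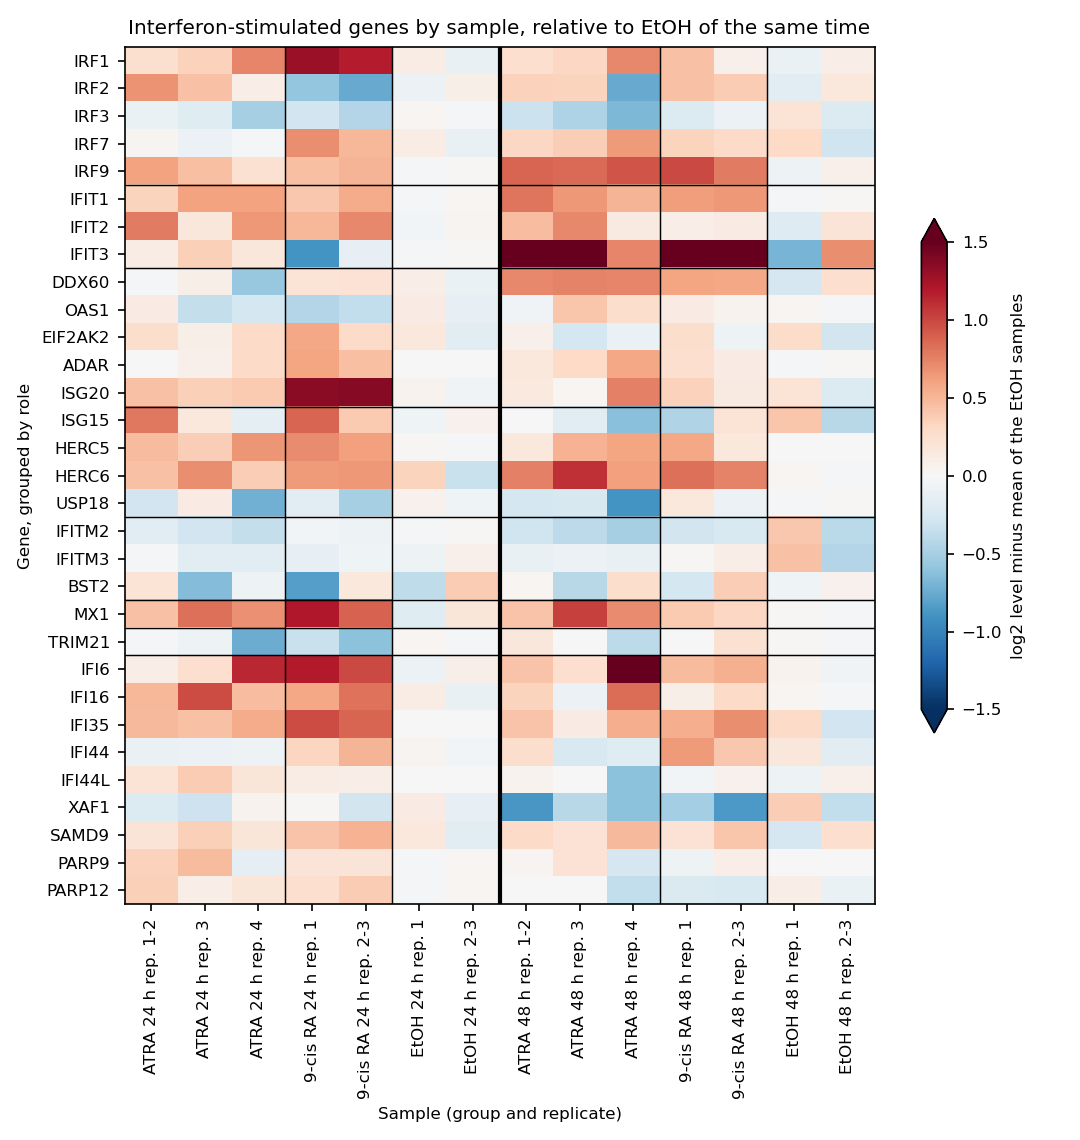
Log2 level of each tested member in every sample minus the mean of the EtOH samples of its time, with genes grouped by role (horizontal lines) and samples by group (vertical lines; the thick line parts 24 h from 48 h); colours stop at 1.5 in either direction. The 9-cis RA samples at 24 h are the highest for ISG20 and IRF1, and EtOH 48 h replicate 1 is far below replicate 2-3 for IFIT3.

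Of the 6 transcription factors listed, 5 were tested; STAT2 was not analysed here. IRF9, the DNA-binding subunit of ISGF3, rose with both retinoids at 48 h. Its normalized log2 level at 24 h was 8.73, 8.57 and 8.35 in ATRA samples and 8.57 and 8.63 in 9-cis RA samples, against 8.10 and 8.14 in EtOH samples. At 48 h it was 8.83, 8.81 and 8.90 in ATRA samples and 8.94 and 8.73 in 9-cis RA samples, against 7.88 and 8.03 in EtOH samples. Treated and EtOH samples did not overlap at either time. The differences of 0.43 ± 0.14 with ATRA and 0.48 ± 0.15 with 9-cis RA at 24 h (± SE) missed the threshold (adjusted p = 0.0982 and 0.0529, limma), while those at 48 h, 0.89 ± 0.14 (1.85-fold; adjusted p = 0.000948) and 0.88 ± 0.15 (1.84-fold; adjusted p = 0.00243), passed it. IRF9 with ATRA at 48 h kept its call in 25 of 26 alternative analyses, and was lost in the smaller array set alone (1.01, adjusted p = 0.167).

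IRF1, an activator that interferon gamma induces, was called with 9-cis RA at 24 h. At 24 h its level was 5.25, 5.35 and 5.75 in ATRA samples and 6.30 and 6.18 in 9-cis RA samples, against 5.12 and 4.90 in EtOH samples. At 48 h it was 5.42, 5.47 and 5.89 in ATRA samples and 5.60 and 5.24 in 9-cis RA samples, against 5.06 and 5.27 in EtOH samples. Both 9-cis RA samples at 24 h exceeded every other sample, and within the ATRA groups replicate 4, which also stood apart on the second component, was the highest at each time. IRF1 was detected on 3 of 3 9-cis RA arrays and 0 of 3 EtOH arrays at 24 h, so the rise is given as at least 1.47-fold (fitted difference 1.23 ± 0.21, adjusted p = 0.00247). With the 4 samples that stood apart as a term, the difference was 0.79 and still passed (adjusted p = 0.0414). No ATRA array at 24 h and 1 of 4 at 48 h detected it. IRF1 was detected on 5 of 20 arrays, 3 of them from 9-cis RA at 24 h. It therefore passed the filter of 3 arrays only through the group in which it was called.

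The other 3 factors were not called in any of the 4 comparisons. IRF7, which sustains interferon production, was higher by 0.60 ± 0.19 with 9-cis RA at 24 h (adjusted p = 0.057) and by 0.44 ± 0.18 with ATRA at 48 h (adjusted p = 0.104). IRF2, a repressor that competes with IRF1 for the same sites, differed by 0.40 ± 0.28 with ATRA and by -0.67 ± 0.31 with 9-cis RA at 24 h (adjusted p = 0.447 and 0.149). IRF3, a constitutive factor activated by nucleic acid sensors, had differences below 0 in all 4 comparisons, the lowest being -0.49 ± 0.17 with ATRA at 48 h (adjusted p = 0.0638).

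The IFIT proteins bind foreign RNA, IFIT1 recognising capped RNA that lacks a methyl group, with IFIT3 as its stabilising partner. Of 4 listed, 3 were tested, and IFIT5 was absent, with detection on 0 arrays. IFIT1 rose in every comparison with EtOH. Levels at 24 h were 6.77, 7.03 and 7.04 in ATRA samples and 6.84 and 6.99 in 9-cis RA samples, against 6.40 and 6.46 in EtOH samples. Those at 48 h were 7.16, 7.01 and 6.87 in ATRA samples and 6.99 and 7.01 in 9-cis RA samples, against 6.34 and 6.38 in EtOH samples. All 10 treated samples lay above all 4 EtOH samples. With ATRA the difference was 0.51 ± 0.14 at 24 h (1.43-fold; adjusted p = 0.0453) and 0.65 ± 0.14 at 48 h (1.57-fold; adjusted p = 0.00614). With 9-cis RA it was 0.48 ± 0.15 at 24 h (1.40-fold; adjusted p = 0.048) and 0.64 ± 0.15 at 48 h (1.56-fold; adjusted p = 0.0147). With the 4 samples that stood apart as a term, the 24 h difference with 9-cis RA was 0.52 (adjusted p = 0.141), no longer called. The 24 h calls stood close to the threshold: ATRA kept its call in 6 of 26 alternatives and 9-cis RA in 6 of 25, with adjusted p between 0.0198 and 0.305. The 48 h calls were kept in 24 and 20 of 26 alternatives with ATRA and 9-cis RA.

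IFIT3 showed the highest called difference of the list, and its size depended on 1 control sample. The 24 h samples read 7.88, 8.13 and 7.94 in ATRA samples and 6.88 and 7.65 in 9-cis RA samples, against 7.75 and 7.79 in EtOH samples. The 48 h samples read 8.15, 8.36 and 7.28 in ATRA samples and 8.43 and 8.21 in 9-cis RA samples, against 5.84 and 7.24 in EtOH samples. The treated samples at 48 h, except ATRA replicate 4, lay above both EtOH samples of 24 h, while EtOH 48 h replicate 1 was the lowest of the 14 samples. IFIT3 rose by 1.39 ± 0.37 with ATRA (2.62-fold; adjusted p = 0.0223) and by 1.78 ± 0.41 with 9-cis RA (3.45-fold; adjusted p = 0.0132) at 48 h. Without EtOH 48 h replicate 1 the differences were 0.69 (adjusted p = 0.313) and 1.09 (adjusted p = 0.14), so neither call held. A second IFIT3 probe, detected on 17 arrays, gave smaller differences of 0.49 and 0.62 at 48 h. At 24 h the called probe stood at -0.51 ± 0.41 with 9-cis RA, where the second probe gave 0.42, so the probes differed in sign there. IFIT2 was not called, at 0.53 ± 0.21 with ATRA and 0.61 ± 0.23 with 9-cis RA at 24 h, where 0 of 3 EtOH arrays detected it (at least 1.07-fold and 1.13-fold; adjusted p = 0.162 and 0.0859).

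Of 9 sensors and effectors of double-stranded RNA, 5 were tested, IFIH1 was absent (detected on 2 arrays), and OAS2, OAS3 and OASL were not analysed here. ISG20, an exonuclease that degrades single-stranded RNA, had the highest difference of the list with 9-cis RA at 24 h. Log2 levels at 24 h stood at 6.09, 6.01 and 6.05 in ATRA samples and 7.01 and 7.02 in 9-cis RA samples, against 5.71 and 5.60 in EtOH samples. At 48 h they stood at 6.12, 6.00 and 6.72 in ATRA samples and 6.32 and 6.11 in 9-cis RA samples, against 6.18 and 5.76 in EtOH samples. The 9-cis RA samples at 24 h lay close together and above every other sample, and the next highest was ATRA 48 h replicate 4. ISG20 rose by 1.36 ± 0.22 with 9-cis RA at 24 h (2.57-fold; adjusted p = 0.00153), and by 1.03 with the 4 samples that stood apart as a term (adjusted p = 0.0352). Its differences in the other 3 comparisons, between 0.24 and 0.39, were not called. At 24 h ISG20 was detected on 3 of 3 9-cis RA arrays and 2 of 3 EtOH arrays, with the EtOH level near the detection limit.

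DDX60, an interferon-induced helicase, rose with ATRA at 48 h. In the 24 h samples it measured 5.60, 5.70 and 5.04 in ATRA samples and 5.82 and 5.82 in 9-cis RA samples, against 5.71 and 5.51 in EtOH samples. In the 48 h samples it measured 5.94, 5.97 and 5.96 in ATRA samples and 5.81 and 5.80 in 9-cis RA samples, against 4.97 and 5.47 in EtOH samples. The 48 h groups did not overlap, and the treated samples of each agent were tightly spaced while the EtOH samples were spread. DDX60 was detected at 48 h on 2 of 4 ATRA, 2 of 3 9-cis RA and 1 of 3 EtOH arrays, near the detection limit. The difference was 0.73 ± 0.19 with ATRA (1.66-fold; adjusted p = 0.0208) and 0.58 ± 0.21 with 9-cis RA (adjusted p = 0.1). Without EtOH 48 h replicate 1 the ATRA difference was 0.48 and not called (adjusted p = 0.223).

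ADAR, which edits adenosine to inosine in double-stranded RNA, was among the brightest members. At 24 h its level was 11.03, 11.10 and 11.31 in ATRA samples and 11.61 and 11.48 in 9-cis RA samples, against 11.03 and 11.02 in EtOH samples. At 48 h it was 11.19, 11.33 and 11.61 in ATRA samples and 11.28 and 11.15 in 9-cis RA samples, against 11.01 and 11.05 in EtOH samples. 9-cis RA raised it by 0.52 ± 0.16 at 24 h (1.44-fold; adjusted p = 0.0483), but a second ADAR probe, also detected on 20 arrays, gave -0.63, and the mean of both gave -0.06 (adjusted p = 0.792). The direction for ADAR therefore depends on the probe, and with the 4 samples that stood apart as a term the called probe gave 0.22 (adjusted p = 0.467). OAS1, an oligoadenylate synthetase that activates RNase L, and EIF2AK2, the kinase PKR, were not called, with differences from -0.41 (OAS1, 9-cis RA, 24 h) to 0.43 (EIF2AK2, 9-cis RA, 24 h).

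The ISG15 system comprised ISG15, its ligase HERC5, the related HERC6, which is the ISG15 ligase in mouse, and the deconjugating protease USP18, all 4 of which were tested. HERC6 rose with both retinoids at 48 h. Levels at 24 h were 5.99, 6.25 and 5.92 in ATRA samples and 6.19 and 6.20 in 9-cis RA samples, against 5.89 and 5.22 in EtOH samples. Those at 48 h were 6.39, 6.73 and 6.25 in ATRA samples and 6.46 and 6.38 in 9-cis RA samples, against 5.66 and 5.61 in EtOH samples. Treated and EtOH samples were separate at each time, and the 48 h difference was 0.82 ± 0.20 with ATRA (1.76-fold; adjusted p = 0.0125) and 0.78 ± 0.21 with 9-cis RA (1.72-fold; adjusted p = 0.0316). The ATRA call was kept in 23 of 26 alternatives and the 9-cis RA call in 18 of 26. HERC6 was detected on 1 of 3 EtOH arrays at 24 h and 2 of 3 at 48 h, so its EtOH level lay near the detection limit.

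HERC5, the main ISG15 ligase of human cells, rose with 9-cis RA at 24 h. The 24 h samples read 9.39, 9.29 and 9.59 in ATRA samples and 9.63 and 9.54 in 9-cis RA samples, against 8.94 and 8.91 in EtOH samples. The 48 h samples read 9.30, 9.66 and 9.73 in ATRA samples and 9.72 and 9.29 in 9-cis RA samples, against 9.14 and 9.14 in EtOH samples. Each treated sample exceeded both EtOH samples of its time, by a small margin in ATRA replicate 1-2 and 9-cis RA replicate 2-3 at 48 h. The call with 9-cis RA at 24 h rested on a difference of 0.66 ± 0.18 (1.58-fold; adjusted p = 0.0313), which was 0.41 with the 4 samples that stood apart as a term (adjusted p = 0.294). ATRA at 24 h gave 0.50 ± 0.17 (adjusted p = 0.106). ISG15 itself was spread within groups, with 6.22, 5.59 and 5.29 in ATRA samples and 6.31 and 5.83 in 9-cis RA samples, against 5.36 and 5.50 in EtOH samples at 24 h, and was not called (adjusted p between 0.221 and 0.875 in the 4 comparisons). USP18 was not called either, at -0.30 ± 0.24 with ATRA and -0.33 ± 0.27 with 9-cis RA at 24 h and -0.47 ± 0.24 and 0.04 ± 0.27 at 48 h.

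MX1, a dynamin-like GTPase that traps viral nucleocapsids, was the tested member of the antiviral GTPases; MX2, GBP1 and GBP2 were not analysed here. Log2 levels at 24 h stood at 5.74, 6.13 and 5.99 in ATRA samples and 6.51 and 6.19 in 9-cis RA samples, against 5.12 and 5.49 in EtOH samples. At 48 h they stood at 6.00, 6.61 and 6.29 in ATRA samples and 5.98 and 5.89 in 9-cis RA samples, against 5.60 and 5.56 in EtOH samples. All treated samples lay above all EtOH samples of their time. At 48 h MX1 was detected on 3 of 4 ATRA arrays and 1 of 3 EtOH arrays, near the detection limit. With 9-cis RA at 24 h MX1 was detected on 3 of 3 arrays, against 0 of 3 EtOH arrays, and was at least 1.58-fold higher (fitted difference 1.04 ± 0.21, adjusted p = 0.00681). With ATRA at 48 h the difference was 0.72 ± 0.19 (1.65-fold; adjusted p = 0.0209), and with ATRA at 24 h it missed the threshold (at least 1.20-fold; adjusted p = 0.07). The 9-cis RA value with the 4 samples that stood apart as a term was 1.02 (adjusted p = 0.0559), and the ATRA 48 h value without these samples was 0.73 (adjusted p = 0.059).

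IFI35, which forms a cytoplasmic complex with NMI, was the passing member among 9 tested genes of other functions; IFI27 was not analysed here. In the 24 h samples it measured 8.51, 8.48 and 8.59 in ATRA samples and 9.01 and 8.90 in 9-cis RA samples, against 8.02 and 8.04 in EtOH samples. In the 48 h samples it measured 8.62, 8.31 and 8.74 in ATRA samples and 8.74 and 8.89 in 9-cis RA samples, against 8.48 and 7.90 in EtOH samples. The 24 h groups were separate and ordered 9-cis RA, ATRA, EtOH, while EtOH 48 h replicate 1 lay above ATRA 48 h replicate 3. IFI35 rose by 0.92 ± 0.19 with 9-cis RA at 24 h (1.90-fold; adjusted p = 0.00836), and stood at 0.63 ± 0.19 with 9-cis RA at 48 h (adjusted p = 0.0536). With the 4 samples that stood apart as a term the 24 h difference was 0.74 (adjusted p = 0.102).

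IFI6, an endoplasmic reticulum protein that restricts flaviviruses, was not called but showed most plainly how the 4 samples stood apart. At 24 h its level was 8.44, 8.59 and 9.47 in ATRA samples and 9.53 and 9.32 in 9-cis RA samples, against 8.25 and 8.43 in EtOH samples. At 48 h it was 8.71, 8.53 and 9.82 in ATRA samples and 8.75 and 8.81 in 9-cis RA samples, against 8.33 and 8.22 in EtOH samples. Replicate 4 was the highest ATRA sample at each time and came close to the 9-cis RA samples of 24 h. The difference with 9-cis RA at 24 h was 1.09 ± 0.38 (adjusted p = 0.0683), and the second IFI6 probe gave 0.43. IFI16, a sensor of nuclear DNA, was at 0.65 ± 0.24 with ATRA and 0.70 ± 0.26 with 9-cis RA at 24 h (adjusted p = 0.137 and 0.0828). XAF1, a pro-apoptotic antagonist of XIAP, was below EtOH without a call, at -0.63 ± 0.22 with ATRA and -0.69 ± 0.24 with 9-cis RA at 48 h (adjusted p = 0.0671 and 0.0913). IFI44, IFI44L, SAMD9, PARP9 and PARP12 were not called in any comparison with EtOH, and ranged from -0.22 (PARP12, 9-cis RA, 48 h) to 0.52 (IFI44, 9-cis RA, 48 h).

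None of the membrane restriction factors was called. IFITM2 and IFITM3, which block the fusion of viruses with endosomes, were among the brightest members, and IFITM2 stood between 11.16 and 11.48 in the 10 treated samples and between 11.25 and 12.07 in the 4 EtOH samples. Differences of IFITM2, IFITM3 and the virion tether BST2 lay between -0.40 and 0.06, and 0 of 3 were called in any comparison with EtOH (limma; 0 had an unadjusted p under 0.05). BST2 was detected on 3 of 20 arrays, just inside the filter. TRIM21, a cytosolic antibody receptor, was not called either, at -0.28 ± 0.22 with ATRA and -0.48 ± 0.24 with 9-cis RA at 24 h. IFITM1, TRIM14 and TRIM22 were not analysed here.

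**Figure D3:**
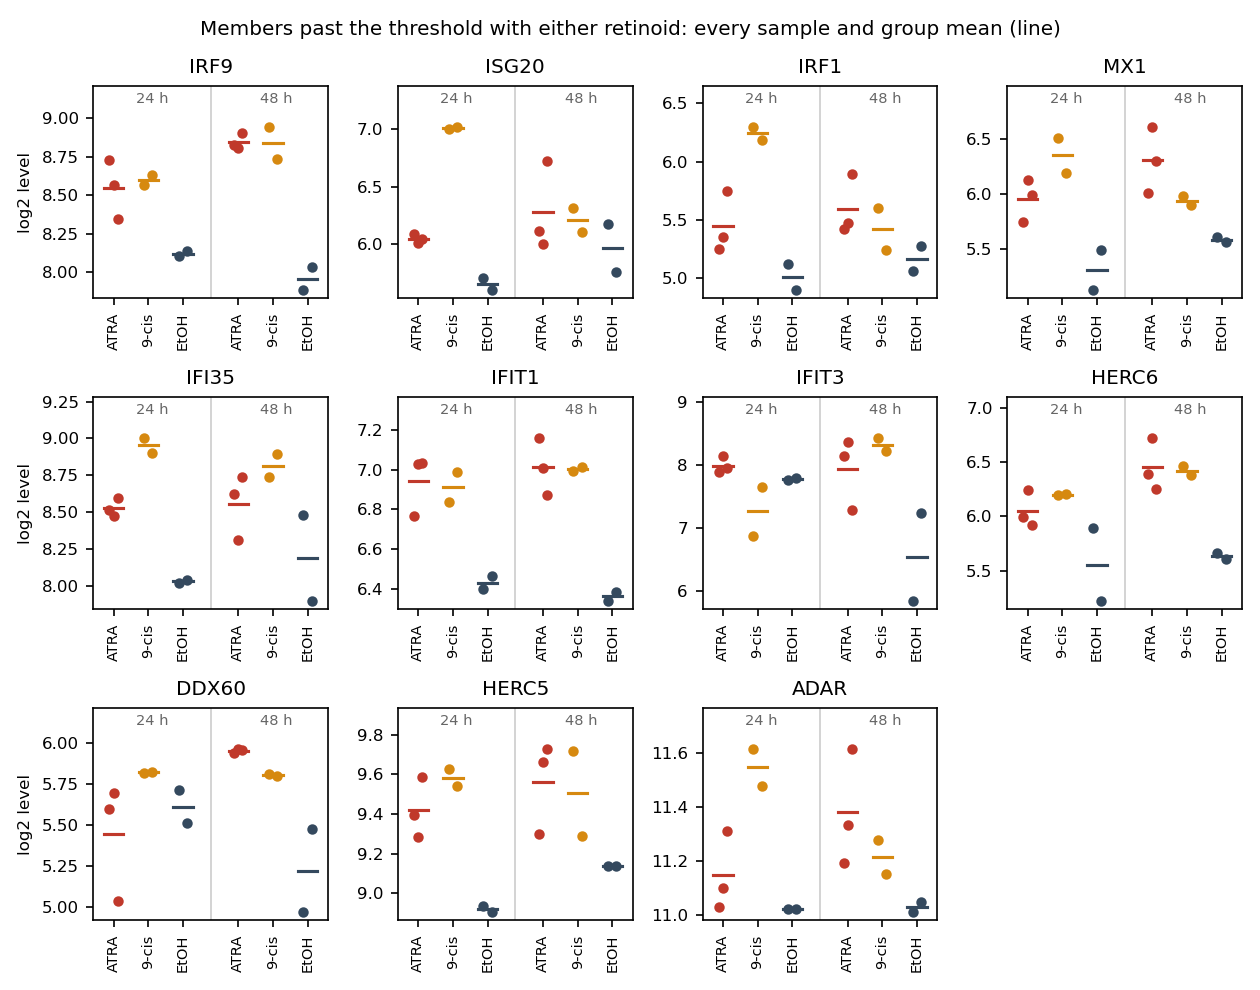
Normalized log2 level of the 11 members called with either retinoid, in every sample (points) with the group mean (line), for ATRA, 9-cis RA and EtOH at 24 h and 48 h; the vertical axis differs between panels. IFIT1, IRF9, MX1, HERC6, HERC5 and ADAR show no overlap of treated with EtOH samples at either time.

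**Figure D4:**
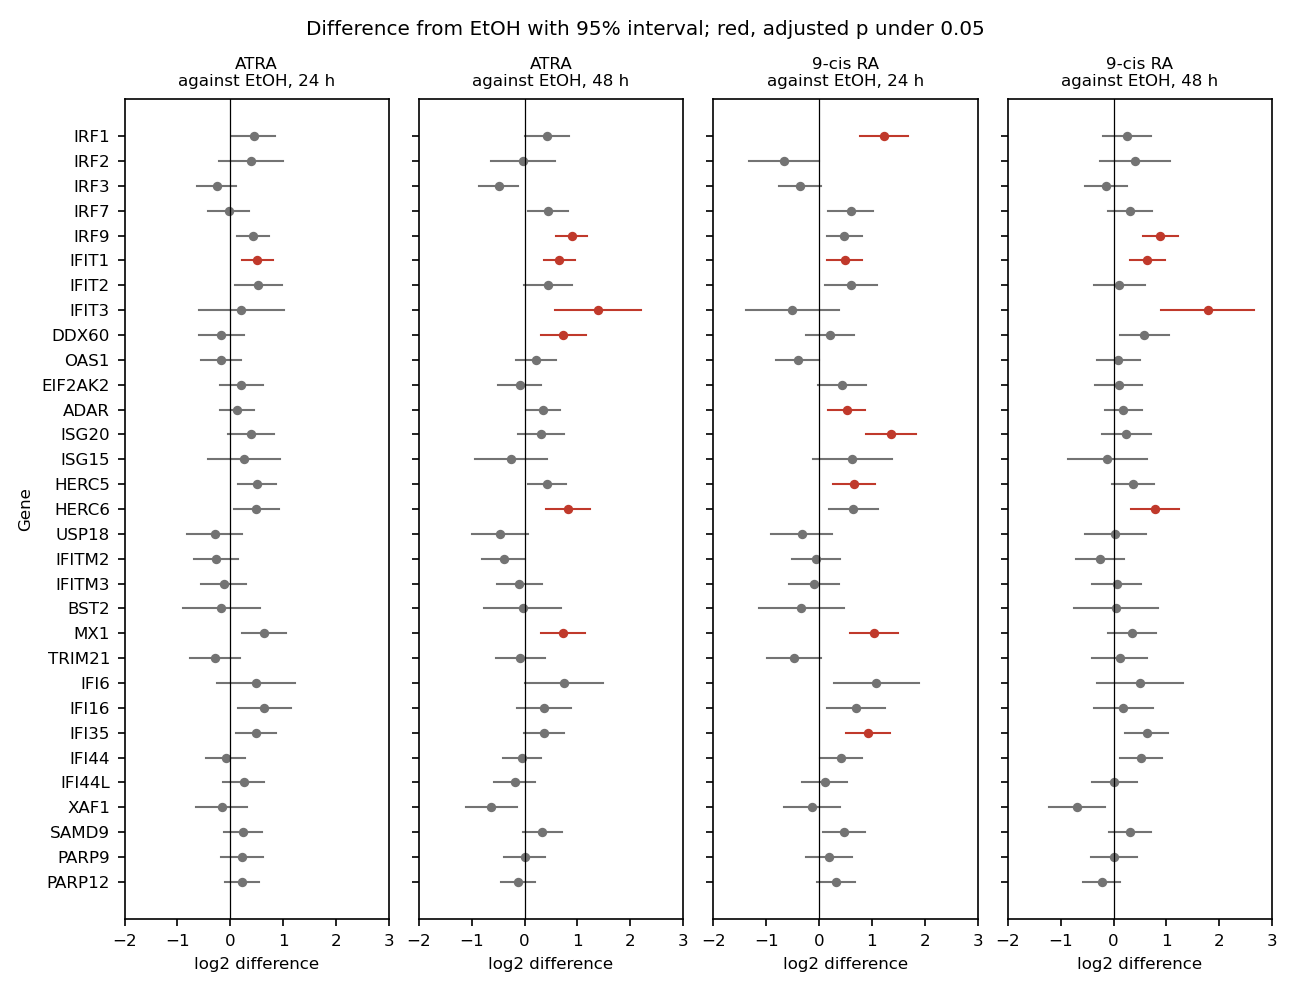
Log2 difference from EtOH of each tested member with its 95% interval in the 4 comparisons (ATRA and 9-cis RA, 24 h and 48 h); red marks an adjusted p under 0.05. All 18 called differences lie above 0, and the widest intervals are those of IFIT3.

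The 18 called differences were all positive within each array set taken alone. They were called on these same arrays, so agreement in sign was largely fixed in advance and is no independent support. In the set of 12 arrays 15 of the 18 passed the threshold, and in the set of 8 arrays, with fewer samples, 0 of the 18 did. The sets are not independent: 6 of the 8 arrays of the smaller set repeat a sample of the larger one, and the smaller set holds 2 EtOH and 2 9-cis RA samples over both times.

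ATRA and 9-cis RA are stereoisomers, trans and cis at 1 double bond of the side chain; both bind the retinoic acid receptors, and 9-cis RA also binds the retinoid X receptors. At the same dose the 31 members were compared at both times, with p-values adjusted over all 10666 genes. 0 of 31 members differed between ATRA and 9-cis RA at 24 h, where 0.0656% of all genes did, and 0 of 31 at 48 h, where 0.0375% did (limma; 7 and 1 members had an unadjusted p under 0.05). The missed threshold does not show that the isomers acted alike, since the intervals at 24 h reach large differences for some members. ISG20 was -0.97 (ATRA minus 9-cis RA; 95% interval -1.39 to -0.54; adjusted p = 0.16) and IRF1 -0.79 (-1.21 to -0.38; adjusted p = 0.263) at 24 h, both lower with ATRA. IRF7 was at -0.62 (-1.01 to -0.24), while IRF2 was at 1.07 (0.47 to 1.68; adjusted p = 0.306), higher with ATRA. ADAR, IFI35 and IFI44 were the other 3 with an unadjusted p under 0.05 at 24 h, at -0.40, -0.43 and -0.50.

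IRF9, IFIT1, HERC6 and IFIT3 were called with both agents at 48 h, and their intervals between isomers at that time all included 0. At 48 h IRF9 differed by 0.01 (-0.30 to 0.31), IFIT1 by 0.01 (-0.28 to 0.31) and HERC6 by 0.03 (-0.39 to 0.46), while IFIT3, at -0.40 (-1.20 to 0.41), had the widest interval of the 4. IFI44 was the member with an unadjusted p under 0.05 at 48 h, at -0.57 (-0.93 to -0.21; adjusted p = 0.818). The comparison at 24 h falls together with the second component, since both 9-cis RA samples and 1 of 3 ATRA samples stood apart on it. In the array set of 12 alone, 5 members passed between the isomers at 24 h, 1 of them higher and 4 lower with ATRA. The share of all genes passing in that fit is not given here, so the count is no result about the members.

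**Figure D5:**
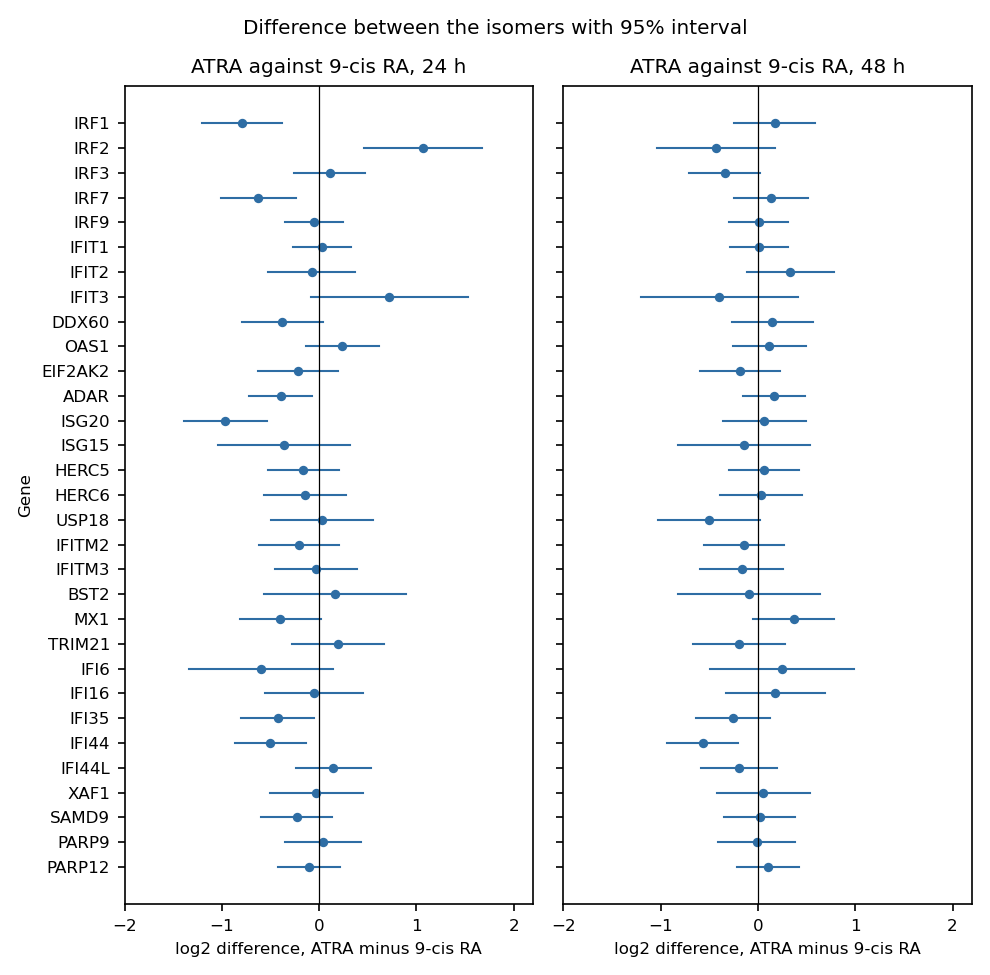
Log2 difference between ATRA and 9-cis RA (ATRA minus 9-cis RA) of each tested member with its 95% interval, at 24 h (left) and 48 h (right). At 24 h the intervals of ISG20, IRF1, IRF7, ADAR, IFI35 and IFI44 lie below 0 and that of IRF2 above it. At 48 h that of IFI44 lies below 0. None of these passes after adjustment.

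Over time in EtOH alone, 0 of 31 members differed between 48 h and 24 h (all genes, 0.0281%; 4 members at an unadjusted p under 0.05). IFIT3 was at -1.24 ± 0.41 (48 h minus 24 h; adjusted p = 0.666), with EtOH 48 h replicate 1 as the low sample, and ISG15 at 0.82 ± 0.34 (adjusted p = 0.814). The change of the ATRA effect between 48 h and 24 h was called for 0 of 31 members (all genes, 0.0375%; 3 unadjusted), and the change of the 9-cis RA effect for 0 of 31 (all genes, 0.00938%; 6 unadjusted). The calls that appear at 1 time and not at the other are therefore not shown to differ between times. IRF9, called with both agents at 48 h and with neither at 24 h, changed by 0.46 ± 0.20 with ATRA and 0.40 ± 0.22 with 9-cis RA (adjusted p = 1 and 0.424). For ISG20 and IRF1 the 9-cis RA effect at 48 h minus that at 24 h was -1.12 ± 0.31 and -0.98 ± 0.30 (adjusted p = 0.217 and 0.239). With ATRA the same change was -0.08 ± 0.28 for ISG20 and -0.01 ± 0.27 for IRF1.

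Other genes of the interferon pathway were taken from a list of 67, of which 35 could be named and 30 were tested. The 9 interferon genes of the list were not analysed here. With ATRA at 24 h 0 of 30 differed. At 48 h of ATRA 3 rose and 1 fell (13.3%; all genes, 17.4%), at 24 h of 9-cis RA 2 rose and 1 fell (10%; all genes, 14.5%), and at 48 h of 9-cis RA 1 rose (3.33%; all genes, 11.1%). These shares were below those of all genes. JAK1, the kinase of the interferon receptors, had levels of 7.90, 8.06 and 7.66 in ATRA samples and 8.04 and 7.66 in 9-cis RA samples, against 5.62 and 7.52 in EtOH samples at 48 h. Its rise with ATRA, 1.30 ± 0.39 (adjusted p = 0.034), stands against 1 low EtOH sample, replicate 1, the one that was also low for IFIT3; without that sample it was 0.35 (adjusted p = 0.43). The other 6 tested receptors and kinases, IFNAR1, IFNAR2, IFNGR1, IFNGR2, IL10RB and TYK2, were not called in any comparison with EtOH.

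The antiviral zinc finger protein ZC3HAV1 rose by 0.49 ± 0.14 (adjusted p = 0.0277) and the ubiquitin ligase RNF213 by 0.57 ± 0.17 (adjusted p = 0.0341) with ATRA at 48 h, each by its brightest probe. The other detected probes gave 0.03 and -0.22 for ZC3HAV1 and -0.09 for RNF213. ZC3HAV1 was at 0.39 (adjusted p = 0.174) without EtOH 48 h replicate 1, and RNF213 at 0.34 (adjusted p = 0.177) without EtOH 48 h replicate 2-3. TRIM25, a ubiquitin ligase that acts on RIG-I, fell by 0.68 ± 0.22 with ATRA at 48 h (adjusted p = 0.0487), to 8.25, 8.06 and 8.05, against 9.24 and 8.37 in EtOH samples. The fall rests on EtOH 48 h replicate 1, without which the difference was -0.25 (adjusted p = 0.515). UBE2L6, the conjugating enzyme for ISG15, rose by 0.95 ± 0.23 with 9-cis RA at 24 h (adjusted p = 0.0177), to 6.95 and 6.88, against 6.09 and 5.84 in EtOH samples, but its second probe gave 0.28 and the mean of both gave 0.61 (adjusted p = 0.0559). PARP14 rose by 0.79 ± 0.23 (adjusted p = 0.0406), and LY6E, a membrane protein that restricts coronaviruses, fell by 0.93 ± 0.20 (adjusted p = 0.0102) in the same comparison. With the 4 samples that stood apart as a term, UBE2L6 was at 0.80 (adjusted p = 0.155), PARP14 at 0.31 (adjusted p = 0.475) and LY6E at -0.48 (adjusted p = 0.141), none of them called. ATRA 24 h replicate 4, one of those samples, was at 7.39 for PARP14 and 11.68 for LY6E, near the 9-cis RA samples and away from the other ATRA samples. LGALS3BP, a secreted glycoprotein, rose by 0.63 ± 0.19 with 9-cis RA at 48 h (adjusted p = 0.0491), and was at 0.43 (adjusted p = 0.289) without EtOH 48 h replicate 1.

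Some markers of the labelled cell type and of other cell types were higher with the retinoids. Among the melanocytic markers TYR was called in all 4 comparisons. Its difference was 0.75 with ATRA and 0.66 with 9-cis RA at 24 h, and 0.86 and 0.69 at 48 h. MITF was called with ATRA at 24 h and 48 h (0.62 and 0.69), and MLANA, PMEL, TYRP1 and SOX10 in no comparison. Of 8 leukocyte markers 4 could be named, with CD14 detected on 1 array and LYZ on 2, IL3RA on 4 and CD68, a lysosomal protein, on 20. Their summed normalized intensity was 2365 to 2632 with ATRA and 2405 to 2600 with 9-cis RA, against 1413 to 1485 with EtOH at 24 h. At 48 h it was 2495 to 2877 with ATRA and 3367 to 3591 with 9-cis RA, against 1239 to 1582 with EtOH. The sum follows CD68, called in all 4 comparisons at 0.82 with ATRA and 0.84 with 9-cis RA at 24 h and 1.03 and 1.39 at 48 h, whereas IL3RA, the other tested marker, was called in none, at -0.21 with ATRA and -0.34 with 9-cis RA at 24 h and 0.13 and -0.10 at 48 h. Of 6 fibroblast markers 3 could be named, with COL1A1 detected on 0 arrays, DCN on 7 and LUM on 20. Their sum was 926 to 1118 with ATRA and 888 to 975 with 9-cis RA, against 612 to 689 with EtOH at 24 h. At 48 h it was 1681 to 1952 with ATRA and 1922 to 2140 with 9-cis RA, against 579 to 932 with EtOH. LUM and DCN rose with both agents at 48 h, and of the 24 h differences only that of LUM with ATRA was called (adjusted p = 0.0461). Their part in the result was not tested.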

How the data were processed

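Gene expression was measured on 20 Illumina BeadChip arrays of RNA from the cell line Mel202. The deposited intensity values are mean bead signals per probe and array, neither background subtracted nor scaled, and each has a deposited detection p-value. The authors' series matrix holds log2 values normalized between arrays, made with lumi per the submitters' processing notes (version not given in the sources used here), and was used as an alternative and, with GEO's platform annotation, to name probes. Of 22579 probes in it, 16545 had 1 gene symbol and 3 had several, and only those with 1 were used.

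Background was subtracted with neqc of limma 3.58.1 (R 4.3.3), which infers the negative controls from detection p-values, adds an offset of 16 and puts quantile normalized values on the log2 scale. The probe with the highest mean intensity stood for a gene, and a gene was tested where 3 or more arrays gave a detection p under 0.01. Repeat arrays were averaged per sample (correlation across genes 0.985 to 0.989; no arrays were identical). One linear model with 6 group means was fitted (8 residual and 5.09 prior degrees of freedom), with 9 contrasts and Benjamini-Hochberg adjustment over 10666 genes. A fold against a group with no detecting array is a lower bound, taken against the lowest detected level on its arrays. Motifs were searched with Python 3.11.15, and plots drawn with matplotlib 3.10.9. The procedure was tested on simulated data. Alternatives changed the background correction, offset, scaling, filter, probe choice, arrays and samples.

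The 44 members, the pathway list and the marker lists were chosen with earlier results of these data known. Members with an adjusted p under 0.05 with either retinoid were named in full, and other members by counts and ranges. The 11 members without a named probe were not analysed here.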

Additional observations from a re-analysis of the deposited data

Results flagged for a closer look

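For 5 genes all treated samples lay on one side of EtOH in 1 setting and on the other side in another, and the difference between the settings was then tested in the same model (limma, adjusted over all genes). None of the 7 differences passed.

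For IRF2, 9-cis RA at 48 h gave 0.41 and at 24 h -0.67, a change of 1.08 (adjusted p = 0.333). At 24 h the same 9-cis RA value stands against 0.40 with ATRA, a difference of -1.07 (9-cis RA minus ATRA; adjusted p = 0.306).

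For IFIT3, 9-cis RA gave 1.78 at 48 h and -0.51 at 24 h, a change of 2.29 (adjusted p = 0.209). At 24 h its value differed from 0.21 with ATRA by -0.72 (9-cis RA minus ATRA; adjusted p = 0.511). The second IFIT3 probe changed by 0.20 between the times with 9-cis RA.

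OAS1 stood at 0.09 with 9-cis RA at 48 h and at -0.41 at 24 h, a change of 0.50 (adjusted p = 0.424). PARP12 stood at -0.22 at 48 h and at 0.32 at 24 h with 9-cis RA, a change of -0.54 (adjusted p = 0.35). IFI44 stood at 0.41 with 9-cis RA and at -0.09 with ATRA at 24 h, a difference of 0.50 (9-cis RA minus ATRA; adjusted p = 0.382). All 7 involve the 9-cis RA samples of 24 h, which stood apart on the second principal component, and the part of this in the differences was not tested.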

How the results depend on the processing

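The 18 called differences kept their sign under every alternative run, except ADAR with 9-cis RA at 24 h. As the mean of its detected probes ADAR was -0.0553. Sizes on the log2 scale varied widely, and the folds above hold for the processing described above only. Over the alternatives with 9-cis RA at 24 h, ISG20 ranged from 0.42 to 1.79, IRF1 from 0.28 to 1.34 and MX1 from 0.26 to 1.23. With ATRA at 48 h, HERC6 ranged from 0.22 to 0.92, IFIT1 from 0.24 to 0.74 and IRF9 from 0.57 to 1.01. Calls were less stable than signs, and the cause was not tested. Some of the alternatives also have fewer samples. The member counts below stand without the share of all genes called in the same fit, so they describe stability only. The 1 member called with ATRA at 24 h became 0 without background correction, with an offset of 50, with equal array medians, with the authors' series matrix values, without the detection filter, in array set 1 alone, in array set 2 alone, in a fit of the compared groups only and with the 4 samples that stood apart left out. It became 3 where the model held the array set and the sample that repeat arrays share as a random block, and 2 with the 4 samples as a term. The 6 called with ATRA at 48 h became 0 in set 2 alone and 1 in a fit of the compared groups only. The 7 called with 9-cis RA at 24 h became 12 in set 1 alone, 0 in set 2 alone, 19 in a fit of the compared groups only and 3 with the 4 samples as a term. The 4 called with 9-cis RA at 48 h became 0 in set 2 alone and 0 in a fit of the compared groups only. Between ATRA and 9-cis RA at 24 h, 0 became 5 in set 1 alone.

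Leaving out each of the 14 samples in turn gave 0 to 2 members with ATRA at 24 h (0 without 10 of the samples, 2 without either EtOH 48 h sample), 3 (without ATRA 48 h replicate 3) to 11 (without EtOH 48 h replicate 2-3) with ATRA at 48 h, 2 (without 9-cis RA 24 h replicate 1) to 11 (without ATRA 48 h replicate 4) with 9-cis RA at 24 h (3 without either EtOH 24 h sample, 4 without 9-cis RA 24 h replicate 2-3), and 1 (without either 9-cis RA 48 h sample) to 7 (without EtOH 48 h replicate 2-3) with 9-cis RA at 48 h (2 without EtOH 48 h replicate 1). It gave 0 to 2 between the isomers at 24 h (2 without ATRA 48 h replicate 4), 0 to 1 for EtOH over time and 0 to 1 for the change of the 9-cis RA effect (1 without EtOH 48 h replicate 2-3 in both) and 0 in the other 2 comparisons. Where a group was left with 1 sample, that sample was assumed to vary like the others.

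No paired analysis was possible because the labels give no numbers that tie treated samples to control samples. The levels of IRF1, MX1, IFIT2, BST2, PARP12 and DDX60 lay near the detection limit. So did the EtOH levels of HERC6 at both times and of ISG20 at 24 h. A fold is given as a lower bound only where no array of the EtOH group detected the gene.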
